A study of Mus musculus with 8 samples.

Results

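A set of 1233 regions was open in control liver and not called open in Alb-D2KO liver, and lay between genes at a middle distance from them. Each member overlapped no annotated gene body and no window of 200 bp around a transcription start site, and its edge was more than 5000 bp and at most 50000 bp from the nearest gene body of GENCODE M21. Among the lost regions, the members were set by a rule of position alone, and this rule was chosen with earlier results of these data known. They made up 15.4% (95% Wilson interval 14.6 to 16.2%) of the 8031 lost regions, and were 1233 of the 2437 lost regions that were intergenic. At the near limit, the 2 closest members lay 5015 bp from Clstn3 (AUC 379) and 5019 bp from Gm44962 (AUC 214), whereas a region 4967 bp from Cby3 (AUC 201) fell outside. At the far limit, the last members lay 49608 and 49683 bp from a gene (AUC 580 and 243), and the next regions lay at 50004 and 50025 bp (AUC 465 and 306).

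Intergenic regions at this distance from genes commonly hold enhancers, which bind transcription factors and act on a promoter through chromatin looping, and insulators, which bind CTCF and limit such contacts. In liver, enhancers are typically bound by HNF4, FOXA and C/EBP factors and by nuclear receptors. The thyroid hormone receptor is a nuclear receptor that binds, with RXR, pairs of AGGTCA-like hexamers. Dio2 encodes the type 2 deiodinase, which converts thyroxine to the active hormone T3.

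The data were ATAC-seq of liver nuclei from adult C57BL/6 mice, an assay in which a transposase cuts open DNA. There were 4 control and 4 Alb-D2KO libraries, each made from 50000 nuclei of frozen liver. In Alb-D2KO mice, floxed Dio2 was deleted by Cre driven by the albumin promoter, so that the deletion was aimed at hepatocytes while the nuclei came from whole liver. The sample names mark the controls as cre, and the study's methods describe Cre controls. Regions were called on libraries grouped together, so that the lists gave 1 value per region and genotype, with no replicate error, and depth per library was unknown. "Lost" therefore means called in control and not overlapped by a call in Alb-D2KO, and no difference in signal between genotypes could be computed. Across all control regions, at least 22368 by their numbering, 35.9% were lost. No gene, fold change or expression value was part of these lists, and a nearest gene is a position, not a target.

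The windows below show motifs that the results describe, of which only CTCF passed a test against another class with all genes counted. Each window is the 200 bases around the summit of a member on the plus strand of mm10, and capitals mark the motif match. In the first 3, capitals mark the CTCF core, a 12-letter consensus that the script scanned on both strands. They are the CTCF-bearing members with the highest AUC, and lay 9884 bp upstream of Pim3 (chr15:88851941-88852140), 22506 bp upstream of Tarbp1 (chr8:126497643-126497842) and 11110 bp downstream of Foxj1 (chr11:116319074-116319273).
Pim3: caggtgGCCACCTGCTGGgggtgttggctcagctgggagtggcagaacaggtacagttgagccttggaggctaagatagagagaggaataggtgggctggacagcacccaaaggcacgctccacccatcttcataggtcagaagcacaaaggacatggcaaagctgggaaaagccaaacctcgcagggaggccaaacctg
Tarbp1: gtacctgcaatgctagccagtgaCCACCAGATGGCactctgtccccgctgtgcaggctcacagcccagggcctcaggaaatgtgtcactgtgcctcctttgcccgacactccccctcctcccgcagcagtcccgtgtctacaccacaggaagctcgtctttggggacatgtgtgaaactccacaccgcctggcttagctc
Foxj1: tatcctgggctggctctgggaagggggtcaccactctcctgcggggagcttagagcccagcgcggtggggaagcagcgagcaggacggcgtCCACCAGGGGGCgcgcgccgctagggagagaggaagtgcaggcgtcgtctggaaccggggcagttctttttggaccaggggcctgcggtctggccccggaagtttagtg

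The next windows hold the letters CAAAGTCCA, an HNF4 motif, in capitals. They are the members with this motif and the highest AUC, at chr1:121349183-121349382, 16276 bp upstream of Insig2, which restrains sterol synthesis, and at chr6:23144119-23144318, 10958 bp upstream of Aass, an enzyme of lysine breakdown.
Insig2: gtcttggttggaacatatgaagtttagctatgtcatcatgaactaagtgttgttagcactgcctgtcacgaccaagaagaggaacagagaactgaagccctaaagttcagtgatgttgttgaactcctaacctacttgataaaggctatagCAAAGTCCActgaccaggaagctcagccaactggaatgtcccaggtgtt
Aass: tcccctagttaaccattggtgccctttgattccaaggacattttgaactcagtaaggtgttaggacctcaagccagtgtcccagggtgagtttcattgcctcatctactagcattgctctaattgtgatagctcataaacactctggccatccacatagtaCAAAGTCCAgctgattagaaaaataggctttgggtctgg

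The following window, at chr10:127937047-127937246 and 25134 bp downstream of Sdr9c7, shows a C/EBP motif (TTGCNNAA), here on the minus strand.
Sdr9c7: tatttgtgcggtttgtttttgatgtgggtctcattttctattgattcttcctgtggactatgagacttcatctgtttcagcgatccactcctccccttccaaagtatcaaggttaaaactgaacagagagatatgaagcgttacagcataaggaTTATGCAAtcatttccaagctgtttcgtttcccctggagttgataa

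The last windows show pairs of AGGTCA-like hexamers. In the member 17112 bp upstream of Ppp2r5a (chr1:191420970-191421169), capitals mark a direct repeat with a spacer of 1 base (DR1). In the member 23272 bp downstream of Trib1 (chr15:59680691-59680890), they mark a direct repeat with a spacer of 4 bases (DR4), the spacing bound by the thyroid hormone receptor with RXR. In the member 5763 bp upstream of Thrsp (chr7:97423838-97424037), they mark a DR4, 2 exact AGGTCA hexamers on the minus strand, of which 1 lies inside the DR4, and an E-box (CACGTG).
Ppp2r5a: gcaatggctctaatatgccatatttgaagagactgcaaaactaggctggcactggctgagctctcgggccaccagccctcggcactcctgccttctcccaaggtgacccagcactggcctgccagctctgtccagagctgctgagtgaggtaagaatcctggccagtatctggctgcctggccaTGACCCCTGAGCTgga
Trib1: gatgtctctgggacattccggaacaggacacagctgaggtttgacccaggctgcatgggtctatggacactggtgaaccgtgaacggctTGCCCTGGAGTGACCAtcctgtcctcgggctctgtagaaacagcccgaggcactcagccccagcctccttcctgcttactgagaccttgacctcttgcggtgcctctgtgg
Thrsp: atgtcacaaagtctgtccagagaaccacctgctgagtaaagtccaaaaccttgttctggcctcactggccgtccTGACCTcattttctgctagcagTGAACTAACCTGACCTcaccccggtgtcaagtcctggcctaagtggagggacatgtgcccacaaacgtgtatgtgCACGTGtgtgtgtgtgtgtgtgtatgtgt

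Members became rarer with distance from genes. They numbered 2.55 per Mb of intergenic sequence at 5 to 10 kb (exact Poisson interval 2.33 to 2.79), 1.75 at 10 to 20 kb, 1.15 at 20 to 30 kb, 0.804 at 30 to 40 kb and 0.733 at 40 to 50 kb (0.556 to 0.947). The intervals of the last 2 bins overlapped. Across the whole 5 to 50 kb zone the density was 1.59 per Mb (1.502 to 1.68) over 773 Mb, against 3.97 within 5 kb and 0.264 beyond 50 kb. These intervals cover counting error only, and regions that lie in groups are not independent. Positions of retained control regions were not available, so the density of all open regions by distance could not be set beside these values. Eligible sequence was not limited to places where reads can be mapped, and it included 64.3 Mb of chromosome X and 56.5 Mb of chromosome Y. The median distance of a member from a gene body was 12408 bp, with quartiles of 8024 and 20292 bp. With distances taken from protein-coding genes only, the density was 3.16 per Mb, and with members of an AUC of at least 300 only, it was 0.596.

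**Figure D1:**
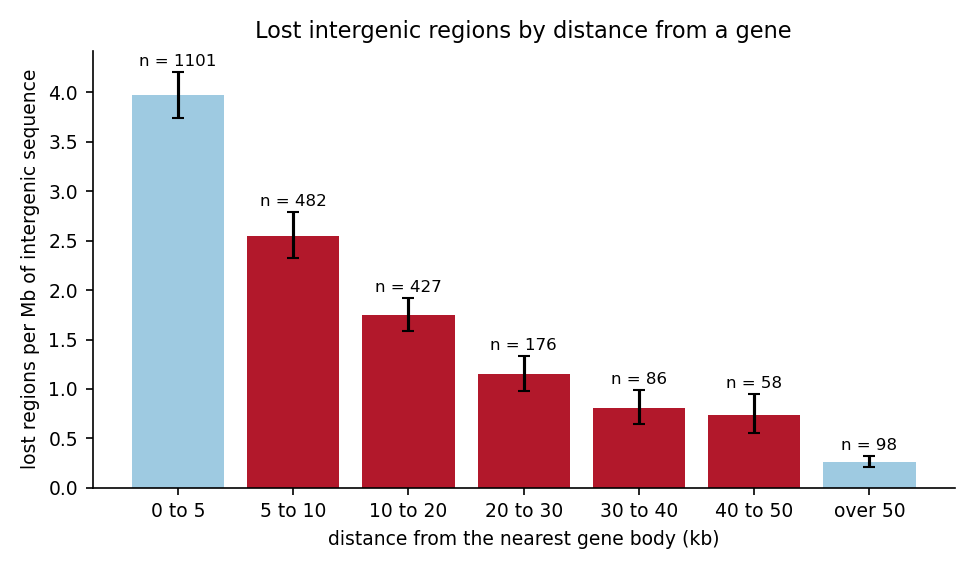
Lost intergenic regions per Mb of intergenic sequence (y axis) by distance from the nearest gene body in kb (x axis). Red bars are the members, pale bars the regions nearer or farther, error bars are 95% exact Poisson intervals, and n is the number of regions with chromosome sequence. The density falls from 3.97 within 5 kb to 0.264 beyond 50 kb.

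The members were unevenly spread over chromosomes. Chromosome 11 held 93 members, or 3.47 per Mb of eligible sequence (2.80 to 4.25), chromosome 9 held 87 (2.72 per Mb) and chromosome 19 held 36 (2.65 per Mb). Chromosome 14 held 40 (1.21 per Mb) and chromosome 1 held 69 (1.27 per Mb). Chromosome X held 2 members in 64.3 Mb, and 40 of all lost regions. Chromosome Y held 1, and 4 further members lay on unplaced scaffolds and had no sequence here, which left 1229 for sequence measures. Of these, 11 (0.895%) matched another place in mm10 at 95% identity or more over at least 80% of their length. Repeat-masked bases could not start a match in this search, which covered placed chromosomes only, so copies of repeats can be missed.

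The strength of a call was measured by its AUC, the area under the curve of −log10 p over the region, which grows with width. The median AUC of the members was 268, with quartiles of 229 and 336 and a range of 200 to 1433. The median width was 299 bp (quartiles 220 and 393, range 152 to 2473 bp), and the median summit −log10 q was 3.14 (range 2.29 to 4.42). The AUC was under 300 in 771 members (62.5%) and at least 500 in 59 (4.79%). Most members were thus weak calls not far above the lowest AUC in the list.

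In AUC, width, GC content and repeats no difference between the members and the comparison regions passed the test. A share of 46.2% had an AUC above the median of all lost regions, against 48.9% of the 1101 intergenic regions within 5 kb (odds ratio 0.900, 0.762 to 1.06), 36.9% of the 103 intergenic regions over 50 kb away (1.47, 0.954 to 2.29) and 46.6% of the 1587 intronic regions 5 to 50 kb from a start site (0.984, 0.845 to 1.15). Width was above the median of all lost regions in 41.1% of members and in 41.9%, 32.0% and 45.3% of these classes in the same order. GC content was above the median of all lost regions in 39.6% of members and in 43.1%, 25.5% and 36.5%. Over 50% of the window was repeat-masked in 4.96% of members and in 3.09%, 5.10% and 2.96%. The smallest adjusted p among these 12 comparisons was 0.0992 (Fisher's exact test, two-sided, Benjamini-Hochberg over 54 comparisons), reached for GC content against the far regions and for repeats against introns. With protein-coding genes only, the GC difference from the far regions passed (42.4% against 32.8%, adjusted p = 0.000872, Fisher's exact test).

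GC content rose at the summits. In the 50-bp bin just before the summit of the members it averaged 53.1%, against 46.05% in the bin 975 bp before and 45.6% in the bin 975 bp after it. CpG pairs rose from 1.06 per 100 bases in that outer bin before the summit to 2.18 at the summit. CpG-rich windows, with a GC content over 50% and an observed to expected CpG ratio over 0.6, made up 72 of 1229 members (5.86%). The share was 8.08% within 5 kb, 5.10% in the far regions and 1.95% in introns (1.38 to 2.76%, against 4.68 to 7.31% for members), a contrast chosen after its values were seen and not tested. The GC peak was not particular to members: the same bin averaged 53.1% within 5 kb, 50.96% in the far regions and 52.0% in introns.

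**Figure D2:**
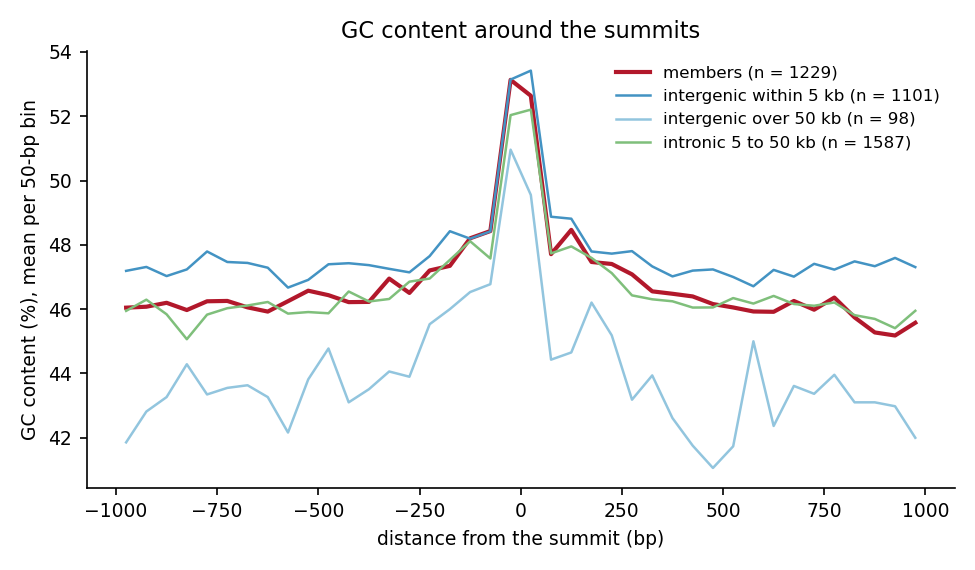
Mean GC content in percent per 50-bp bin (y axis, not starting at 0) by distance from the summit in bp (x axis), with 1 line per class of lost regions. The line of the members peaks at 53.1% beside the summit and is at 46.05% and 45.6% at the edges.

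CTCF gave the motif comparison with the smallest adjusted p. CTCF is the zinc finger protein that anchors chromatin loops with cohesin. Its core motif was found in 123 of 1229 members (10.01%, 8.45 to 11.8%), in 6.57% of all lost regions and in 7 of 2458 windows of the same length 2000 bp to either side of the members (0.285%). Among the intronic regions, whose 5 to 50 kb are counted from a start site and not from a gene body, it was found in 80 of 1587 (5.04%), an odds ratio of 2.09 (1.55 to 2.84, adjusted p = 3.72e-05, Fisher's exact test). The share in intergenic regions within 5 kb was 9.99% (odds ratio 1.002, 0.757 to 1.33). In the 98 far regions with sequence it was 5.10% (2.07, 0.831 to 6.64, adjusted p = 0.374, Fisher's exact test). With protein-coding genes only, which puts 573 regions with sequence in the far class, this difference passed (10.2% against 3.84%, odds ratio 2.84, 1.78 to 4.71, adjusted p = 5.02e-05, exact test). Among regions with an AUC of at least 300, the shares were 5.86% of members and 2.08% of introns, and the call was lost (odds ratio 2.93, adjusted p = 0.0889, Fisher's exact test).

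The CTCF-bearing members looked different from the others in shape. Their median width was 185 bp, against 310 bp in the other members, and 87 of 123 (70.7%) were narrower than 200 bp, against 146 of 1106 (13.2%). Their median AUC was 248 against 272, and their median summit −log10 q was 3.32 against 3.12, so that they were narrow with a higher summit value. No lost region had an AUC under 200, and AUC is an area over the width, so a narrow region had to be taller to be listed. The motif centre was within 25 bp of the summit in 81 of the 123 (65.9%), with a median distance of 15.5 bp. For the other motifs with at least 10 members, between 15.4% and 34.2% of the matches closest to the summit lay as near. The share with CTCF fell with AUC, from 13.2% of the 496 members under 250 to 3.95% of the 152 at 400 and over. These contrasts among members were chosen after their values were seen and were not tested. The 3 CTCF windows printed above are the CTCF-bearing members of highest AUC, and are wider than most (425 to 639 bp).

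**Figure D3:**
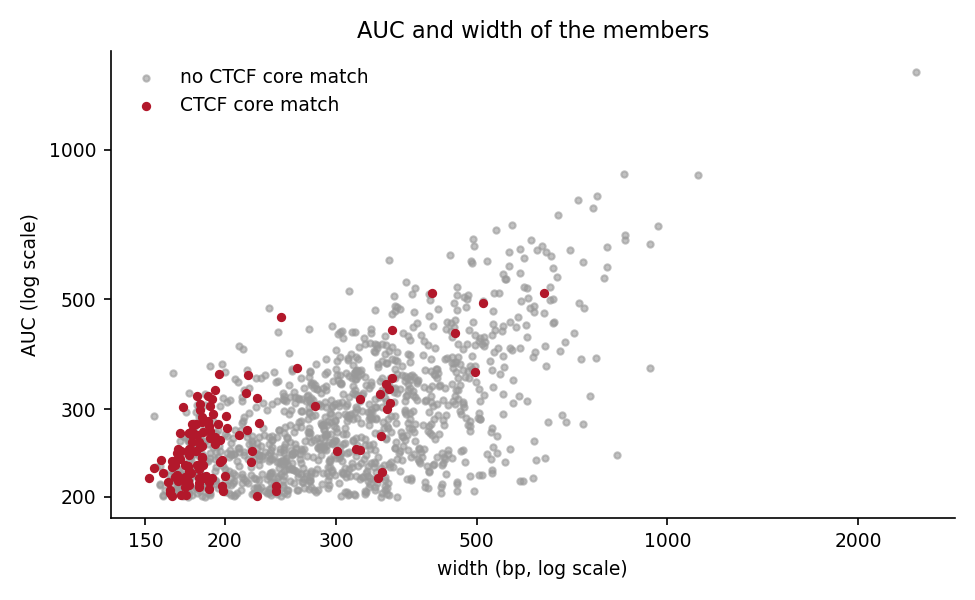
AUC (y axis, log scale) against width in bp (x axis, log scale) for the 1229 members with sequence, 1 point each. Red points hold a CTCF core match and gather at the narrow edge, with a median of 185 bp against 310 bp for the grey points.

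Liver factor motifs were found in larger shares of summit windows than of flanks, a description without a test. The HNF4 motif was in 3.01% of members and 0.325% of their flanking windows, and in 2.36% of all lost regions. The C/EBP motif was in 16.4% of members, 7.97% of flanks and 14.3% of all lost regions. The FOXA motif (TGTTTAC) was in 4.96%, 2.85% and 4.99%. The E-box was in 6.51%, 2.73% and 5.81%, and the AP-1 motif (TGANTCA) in 7.65%, 6.35% and 6.93%, where the intervals of members and flanks overlapped. The SP1/KLF motif (GGGCGG), typical of promoters, was in 6.67% of members, 2.28% of flanks and 14.4% of all lost regions. HNF1 (GTTAATNAT) was in 13 members (1.06%), 0.488% of flanks and 1.36% of all lost regions. NRF1 (GCGCANGCG) and ETS (CCGGAAGT) were in 4 members each (0.33%). NRF1 was in 0.163% of flanks and 1.30% of all lost regions, and ETS in 0.0814% and 0.736%. The intervals of members and flanks overlapped for each of these. At least 1 of the 13 motifs was found in 790 members (64.3%). That share was not computed for flanks or other lost regions, so it only describes the members.

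Hexamers of the nuclear receptor type were about as common in members as elsewhere in the list. AGGTCA was found in 25.3% of members, 13.5% of flanks and 23.7% of all lost regions. DR1, the spacing used by HNF4 and PPAR with RXR, was in 10.3%, 3.34% and 9.48%, and DR4 in 5.04%, 2.28% and 4.61%, both counted with up to 2 mismatches in the 12 fixed letters. AGGTCA was also present in 84 of the 126 DR1 windows and 41 of the 62 DR4 windows, so these counts overlap. Apart from CTCF against introns, none of the 39 motif comparisons with the other classes passed at an adjusted p of 0.05 (Fisher's exact test). With protein-coding genes only, C/EBP (14.9% against 22.5%, adjusted p = 0.000872) and SP1/KLF (8.39% against 4.71%, adjusted p = 0.0320) also passed against the far regions by the same exact test, SP1/KLF in the direction opposite to the 6.67% and 7.14% with all genes. The closest with all genes were the E-box against regions within 5 kb (4.09%, adjusted p = 0.107, exact test) and C/EBP against the same regions (12.8%) and against the far regions (26.5%), both at an adjusted p of 0.130 (exact test). The intervals of the odds ratios for C/EBP were 1.05 to 1.69 and 0.332 to 0.907. They are not adjusted for the number of comparisons, and neither comparison passed with all genes.

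**Figure D4:**
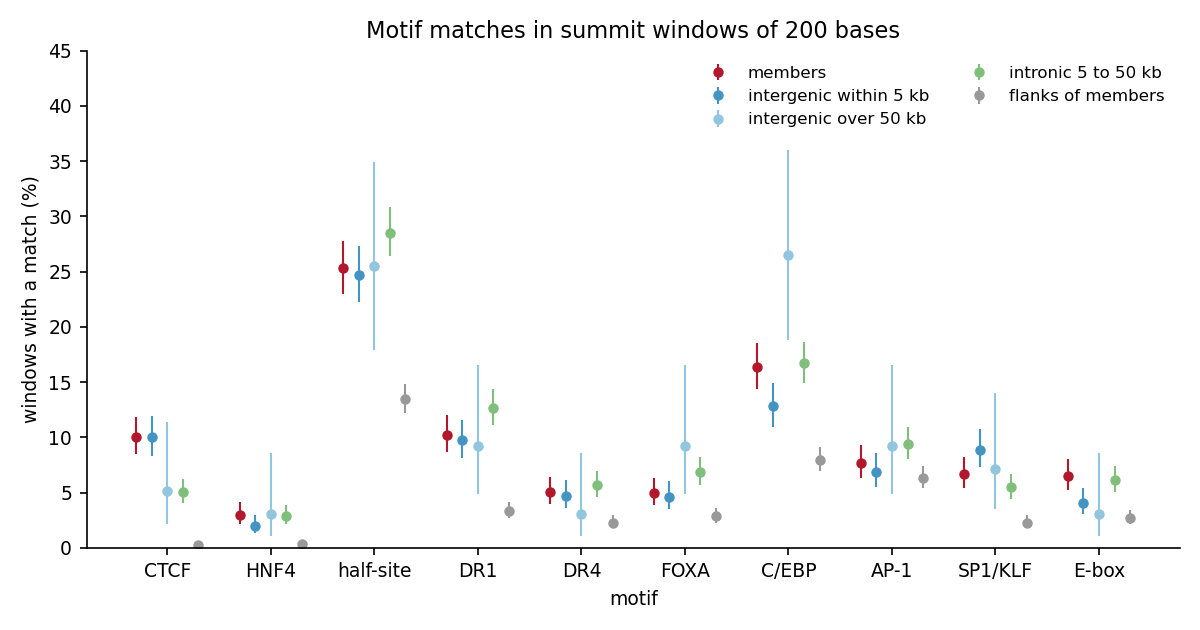
Share of 200-base windows with a match in percent (y axis) for 10 motifs (x axis), in members, in 3 other classes of lost regions and in flanks 2000 bp from the members; bars are 95% Wilson intervals. CTCF is at 10.01% in members, 5.04% in introns and 0.285% in flanks.

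Neighbours along the control list were lost more often than control regions at large, for members as for lost regions in general. Each member has 2 adjacent places in the control list, and 42.5% of these 2466 places held a lost region, against 35.9% of all control regions and 41.9% of the places beside any lost region. Neighbouring members count each other and share neighbours, so the places are not distinct regions and no interval is given. At least 1 adjacent control region was lost for 795 members (64.5%), and both for 254 (20.6%). The first share was lower than in intronic regions (70.3%, odds ratio 0.766, 0.652 to 0.901, adjusted p = 0.0311, Fisher's exact test). Regions that share neighbours or count each other are not independent, so this p and the intervals given here can be too narrow. The call was lost when both neighbours had to be lost (0.917), for members over 10000 bp away (0.834) and at an AUC of at least 300 (0.911). It was kept with protein-coding genes only (0.770), on chromosomes 1 to 19 and X (0.773) and with the lost neighbour within 50 kb (0.712). The share with at least 1 lost neighbour was 62.9% for regions within 5 kb (1.07, 0.903 to 1.27) and 68.9% for the far regions (0.818, 0.513 to 1.28). Another member lay within 50 kb of 464 members (37.6%), and the nearest coding gene had a lost region at one of its start sites for 162 (13.1%). That share was 14.9% for regions within 5 kb, 5.83% for the far regions and 18.7% for intronic regions, and was not tested.

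Members gathered at some genes. Joined where at most 10 kb apart, they formed 926 single regions, 114 pairs and 22 larger groups. The largest held 6 members over 35753 bp between Onecut1, a transcription factor of liver development, and Fam214a (AUC 229 to 590), where 6 of the 7 control regions spanned were lost. A group of 5 lay at Alas1, the first enzyme of heme synthesis, and Poc1a, over 9293 bp, and all 5 control regions there were lost. The 4 regions 9208 to 12114 bp upstream of Apoa5, an apolipoprotein that lowers plasma triglyceride, had AUC values of 293, 386, 307 and 311 from the farthest to the nearest, with no retained control region among them. The farthest of them lay 218 bp from the next. Group and gene counts are counts of calls, and whether close calls are parts of 1 open site was not tested. At Tat, the tyrosine aminotransferase, 3 members 6041 to 10673 bp upstream had AUC values of 326, 334 and 328.

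Of 964 coding genes that were nearest to a member, 783 were nearest to 1 only and 19 to at least 4. The limit of 50 kb holds for the nearest gene body of any kind, and the nearest coding gene was within 50 kb for 957 members (77.6%). Onecut1, Ptpn1 and Vegfa each had 6. Ptpn1 encodes a phosphatase that dampens insulin signalling, and its members, 39692 to 89239 bp upstream, had AUC values from 218 to 672. Those of Vegfa, an angiogenic growth factor, lay on both sides at 12255 to 43378 bp (AUC 200 to 428). Id2, Scaf8 and Zfp217 had 5 each. The members of Scaf8 lay 82470 to 99954 bp upstream, at the sequenced start of chromosome 17. Their summit windows were 53 to 75% repeat-masked, against a median of 3.0% for all members. An Alb-D2KO-only region was also called there, 105963 bp from the gene. Selenop, a plasma carrier of selenium, had 4 at 17261 to 39248 bp upstream (AUC 254 to 407). Trib1, Btg1, Gadd45g, Tbx3, Nr2f2, Wdr5, Poc1a, Apoa5, Lacc1, Lmntd1, Pkdcc and 1600014C23Rik also had 4 each. These genes differ in how much eligible sequence surrounds them, from 0.0076 Mb at Apoa5 to 0.516 Mb at Nr2f2.

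Of the 10 members of highest AUC, none had its nearest coding gene on a list described below. The highest, 2473 bp wide on chromosome Y, lay 9632 bp downstream of Gm21860 with an AUC of 1433. The next lay at Ppp2r5a, a regulatory subunit of protein phosphatase 2A (AUC 892), and 124234 bp from Tomm20, a mitochondrial import receptor (887). Members at Dhx8, a splicing helicase (805), and Rab11fip4, an effector of Rab11 (790), came after. They were followed by members at Wdr5, a subunit of histone methyltransferase complexes (762), Vps26c, of endosomal sorting (736), Irf2, a transcription factor (706), Wnt7b, a signalling ligand (701), and Paqr9, a membrane receptor family member (687).

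Members lay on the upstream side of that gene in 738 of 1231 cases (59.95%, 57.2 to 62.7%), while 53.6% of eligible sequence did so. The share was 53.3% for regions within 5 kb and 62.2% for those over 50 kb away. The nearest annotated gene of any kind was coding for 627 members (50.9%), a lincRNA for 244 (19.8%) and a pseudogene for 206 (16.7%). The median distance to a coding gene was 20556 bp, and it exceeded 100 kb for 129 members (10.5%).

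Genes of lipid metabolism were nearest to 29 members, at 18 genes, among the 95 genes listed. This was 2.36% (1.65 to 3.37%) of members in 0.363% of the eligible sequence, or 10.3 per Mb (exact Poisson interval 6.92 to 14.8) beside 1.59 for all coding genes. Lpin1, a phosphatidate phosphatase, had the highest AUC (644, 19171 bp upstream), followed by Thrsp (604), a lipogenic gene induced by thyroid hormone, and Insig2 (549). Members also lay upstream of Ppara, the receptor that drives fatty acid oxidation (AUC 441 and 263), and Fabp1, the liver fatty acid binding protein (366, 343 and 281). All but 3 of the 29 were on the upstream side. The densities of this and the lists that follow are descriptions without a test, since grouped members share a gene. They are per Mb of sequence, not per open region, and were not matched for distance from a gene body or for chromosome. The 1.59 for all coding genes includes chromosomes X and Y, with 2 members and 1. Positions of retained control regions were not available, so the share of open regions lost near listed genes could not be computed.

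Of 8 members nearest to the 24 genes of thyroid hormone action (4.50 per Mb, 1.94 to 8.87), 2 lay upstream of Thrsp. The stronger was the window printed above (AUC 604), and the weaker, 7209 bp upstream (AUC 318), held a CTCF match. Dio3, the deiodinase that inactivates thyroid hormone, was the nearest coding gene of 3 members, 34065, 158544 and 306390 bp upstream (AUC 328, 206 and 276). The coactivator Ncoa3 had 1 member (310). Dio2, the targeted gene (chr12:90724552-90738438), had none, and its nearest lost region of any class was 930102 bp away.

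Drug, steroid and bile acid genes, 280 in all, had 20 members at 18 genes, or 2.60 per Mb (1.59 to 4.01). They were led by Abcb1b, an efflux transporter (AUC 621), Slc10a1, the bile acid uptake carrier (470), and Cyp8b1, the sterol 12-alpha-hydroxylase (370 and 305). Glucose and insulin genes had 18 members at 10 of 48 genes, or 6.67 per Mb (3.96 to 10.5). Among them were Trib1, a pseudokinase linked to lipid levels (AUC 632), and Pik3r1, the regulatory subunit of PI3 kinase (431, 155985 bp downstream). Others were Ppp1r3b, a glycogen-targeting phosphatase subunit (388), and Pck1, which sets gluconeogenesis (324, 5975 bp upstream).

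Liver transcription factors and nuclear receptors, 65 in all, had 30 members at 14 genes, or 4.98 per Mb (3.36 to 7.11). Rxra, the partner of most metabolic nuclear receptors, had 1 with an AUC of 627. Nr2f2 and Nr5a2, both orphan receptors, had members of up to 598 and 555, which lay 158049 and 49908 bp upstream. Cebpb, Cebpa and Hnf4a, which define hepatocyte expression, had 3, 2 and 1. Those of Cebpb lay 69581 to 115443 bp downstream. Immediate early and growth signalling genes had 25 members at 12 of 52 genes, or 7.48 per Mb (4.84 to 11.04). They were led by Errfi1, an inhibitor of EGFR (592, 68494 bp upstream), Zfp36l1, an mRNA decay factor (520, 137525 bp downstream), and Fgfr4, the FGF15 receptor (481).

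Plasma and acute phase genes had 4 members in 0.348 Mb of eligible sequence, or 11.5 per Mb (3.13 to 29.4), 2 each upstream of Hp (AUC 388 and 361) and Alb (322 and 203), and coagulation and complement genes had 3 in 0.661 Mb, or 4.54 per Mb (0.935 to 13.3), at Serping1 (354), Proc (250) and Mbl2 (221). The clock genes had 1, at Tef (257). Markers of other liver cells had 1 of 1229, 223120 bp from Sox9, a cholangiocyte factor (229), over 1.81 Mb of eligible sequence. Across the 10 lists, 137 members (11.1%) had a listed gene nearest, in 3.59% of the eligible sequence, and the other members were nearest to genes on none of them.

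**Figure D5:**
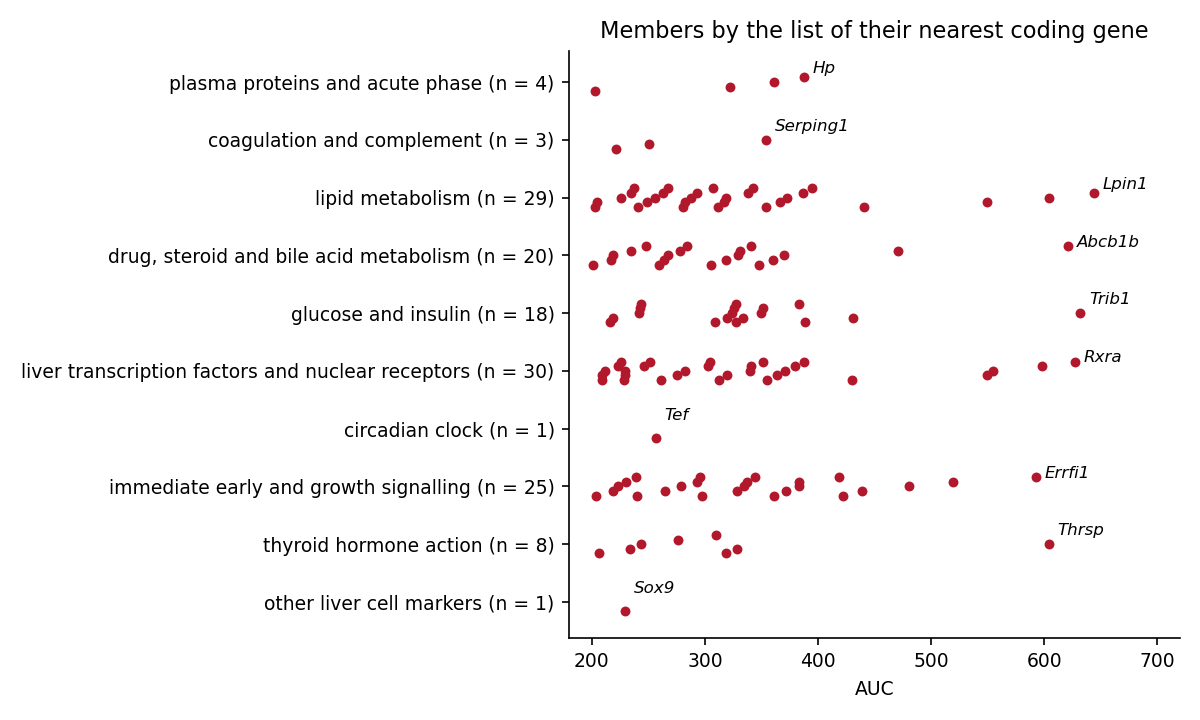
AUC (x axis) of each member whose nearest coding gene is on a list (y axis), 1 point per member, with the gene of the highest AUC named and n the number of members. Lpin1 (644), Trib1 (632) and Rxra (627) reach the highest values, and vertical offsets within a list carry no meaning.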

How the data were processed

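Liver ATAC-seq of 4 control and 4 Alb-D2KO libraries was used. The authors trimmed reads with NGmerge 0.3, aligned them to mm10 with BWA 0.7.17, removed chimeric, duplicate, supplementary and low-quality (MAPQ under 30) alignments, and called regions with Genrich 0.6 at q 0.05 on grouped samples, leaving out blacklisted regions. By the study's methods, calls on single libraries gave few regions, and depth and replicate error are unknown. The deposited signal is the AUC per region, and each region also has a deposited −log10 p and −log10 q at its summit. Lists were made by the authors by overlap subtraction.

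Regions were classified with GENCODE M21 (the study names another release) in the order promoter, exon, intron, intergenic. Distances are edge to edge. Eligible sequence was sampled every 100 bp. Sequence was GRCm38 from RefSeq. Counts of regions in each class were set against each other with two-sided Fisher's exact tests and Benjamini-Hochberg adjustment (SciPy 1.17.1). P-values treat regions as units, not animals. Copies were megablast hits of at least 95% identity over 80% of a region, with repeat-masked bases kept from starting a hit. Code was tested on simulated data. Members, lists and motifs were chosen with earlier results of these data known. Fmod was removed from the drug list after its values were seen, since only its name start matched. Genes named are those nearest to the 10 members of highest AUC, those nearest to at least 4 members, the 3 per list with the highest AUC, and Dio2, and all others were named after their values were seen. Some members' nearest genes are not reported here.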

Additional observations from a re-analysis of the deposited data

How the results depend on the processing

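No paired analysis was possible because the calls are pooled and carry no replicate, and for the same reason no library could be left out. The number of members was 750 when they had to lie over 10000 bp from a gene and 462 at an AUC of at least 300, both by construction from fewer regions, and stayed between 836 and 1516 under the other 9 alternatives. Joining regions within 100 bp could not change the number, since no member lay closer than 104 bp to another lost region. The density of members per Mb was 3.16 with protein-coding genes only and 0.596 at an AUC of at least 300. The odds ratio of a lost neighbour against introns lost its call at an AUC of at least 300 (0.911), over 10000 bp (0.834) and with both neighbours lost (0.917). It kept its call with protein-coding genes only (0.770), on chromosomes 1 to 19 and X (0.773) and with the lost neighbour within 50 kb (0.712). With protein-coding genes only, 4 odds ratios against regions over 50 kb away gained a call: GC content (1.51), CTCF (2.84), C/EBP (0.604) and SP1/KLF (1.85), the last with a changed direction. The cause was not tested. CTCF against introns kept its direction in all 6 alternatives (1.75 to 2.93) and lost its call at an AUC of at least 300, where 12 of 578 introns held the motif. Neither of the 2 comparisons called with all genes changed direction. Depth per library is unknown, so no limit from depth can be given.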

Other observations

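Among the 250 regions called open only in Alb-D2KO liver, 43 (17.2%, Wilson interval 13.03 to 22.4%) met the same rule of position, against 15.4% of the lost regions. Their median AUC was 222, with a range of 201 to 508, and their median width was 270 bp. The highest AUC (508) lay 16589 bp upstream of Gm13212, and the next at Pdia6, a disulfide isomerase of the endoplasmic reticulum (347), and Wrnip1, a DNA repair ATPase (294). The CTCF core was found in 1 of the 42 with sequence. An Alb-D2KO-only region lay within 50 kb of 28 members (2.27%) and of 11 lost intergenic regions within 5 kb of a gene (0.999%). It did so for 8 lost intronic regions (0.504%) and for 0 of the 103 lost intergenic regions over 50 kb from a gene. The 28 include the 5 members of Scaf8, which all lie near the same Alb-D2KO-only region, so they are not separate cases. The genes and the distance were chosen after their values were seen, and these shares were not tested.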
